A study of Mus musculus with 6 samples.

Results

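The genes described here encode the mitochondrial ribosomal proteins, taken as every symbol of the count table made of Mrpl or Mrps, a number and at most 1 letter, without pseudogene symbols. The rule found 78 of 55418 symbols, 49 Mrpl genes of the large subunit and 29 Mrps genes of the small subunit. It used names only, so that no measured value chose a member. The samples were 6 RNA-seq libraries of MOC2, a mouse line of HPV-negative head and neck squamous cell carcinoma, 3 from CRISPR control cells and 3 labelled EphA4 knockout. Per the labels, the knockout cells were a single clone, H3, and both groups were thawed, passaged 2 times and left untreated. RNA was selected by polyA tail, and all samples carried the same batch label. Whether the 3 samples of a group were separate cultures is not in the labels, and the p-values below rest on a spread between samples that may be technical. With 1 knockout clone, the label's effect and the clone's other differences from the control cells cannot be told apart.

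Library totals were 35115926 to 41775031 counts in the control samples and 35807059 to 37174736 in the knockout-labelled samples. The targeted gene went against its label. Epha4, a receptor tyrosine kinase of the Eph family, had 1907, 2110 and 2250 counts in the control libraries and 3483, 3815 and 3606 in the knockout-labelled libraries. That is 55.1 ± 4.26 against 99.7 ± 3.27 CPM (counts scaled to the library's total, mean ± SD, n = 3 each), higher in the libraries labelled as knockout (log2 fold change 0.86, SE 0.06, edgeR adjusted p = 2.1e-06). Counts over a gene do not show whether its protein was lost, and higher and lower below mean the knockout-labelled libraries relative to control. Of the epithelial markers, Krt8 and Krt18 were abundant and Krt5 and Trp63 had at most 2 counts in any library. The others differed in both directions: Epcam and Krt14 were lower (log2 fold changes -0.61 and -1.03), and Cdh1 and Sfn higher (0.14 and 0.93). Krt8 and Krt18 were also higher (0.29 and 0.19). Summed over 9 fibroblast markers, the level was 48.9 to 52.3 CPM in control and 1.91 to 2.03 CPM in knockout-labelled libraries, with Lum at 0 throughout. All 6 that passed the filter were lower, but only Pdgfra had more than 7 counts in any knockout-labelled library. The others passed it through their control counts, so that they could only be lower. Col3a1 fell from 20.6 ± 0.70 to 0.10 ± 0.08 CPM, Col1a1 from 14.8 ± 1.89 to 0.05 ± 0.08 CPM and Pdgfra from 9.40 ± 0.35 to 1.55 ± 0.01 CPM. Col1a2, which did not pass it, had 4, 0 and 1 counts in control against 8, 11 and 10. Leukocyte markers summed to 22.0 to 24.9 against 11.8 to 13.2 CPM, with Cd3e, Itgam and Adgre1 at 0. Of the leukocyte markers that passed the filter, Cd68 fell from 18.2 ± 1.32 to 4.24 ± 0.39 CPM and Csf1r rose from 4.72 ± 0.26 to 7.75 ± 0.70 CPM, and Ptprc, which did not pass it, had 3, 1 and 10 counts against 18, 16 and 7. Endothelial markers summed to 1.39 to 1.65 against 0.586 to 1.06 CPM, with Emcn at 0. The part of these differences in the results below was not tested.

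Mitochondria carry their own ribosome, which translates the few membrane proteins of oxidative phosphorylation that mitochondrial DNA still encodes. Its 2 ribosomal RNAs come from the mitochondrial genome, while all of its proteins are encoded in the nucleus, made in the cytosol and imported. Many have a counterpart in the bacterial ribosome, and the others arose in the mitochondrial lineage. The small subunit binds the messenger RNA and decodes it, and the large subunit forms the peptide bond and anchors the ribosome to the inner membrane. Promoters of nuclear genes for mitochondrial proteins often hold sites for NRF1, for the ETS factor GABP and for YY1.

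Because the members' own RNA was the readout, the promoters of those that moved most are shown first. They are the largest rise of each subunit (Mrpl49, Mrps26), the largest fall of each subunit with a promoter in the table used (Mrpl14, Mrps9), and 1 pair of members that face each other across a single promoter (Mrpl46, Mrps11). Each runs 5′ to 3′ on the gene's strand, from 250 bases before to 50 bases after the RefSeq start, in the GRCm38.p6 build. Capitals mark matches to a motif, sought on both strands: GCGCA and GCGC with any 1 base between them for NRF1, CCGGAAG for ETS factors, AAGATGGCG for YY1, CACGTG for the E-box, TATAAA for the TATA box, and the palindrome of ZBTB33, TCTCG followed by its reverse complement. The windows lie at chr19:6057706-6058005 (minus strand), chr2:130563507-130563806, chr17:45686099-45686398 and chr1:42850983-42851282 (plus strand), chr7:78783040-78783339 (minus strand) and chr7:78782881-78783180 (plus strand).
Mrpl49: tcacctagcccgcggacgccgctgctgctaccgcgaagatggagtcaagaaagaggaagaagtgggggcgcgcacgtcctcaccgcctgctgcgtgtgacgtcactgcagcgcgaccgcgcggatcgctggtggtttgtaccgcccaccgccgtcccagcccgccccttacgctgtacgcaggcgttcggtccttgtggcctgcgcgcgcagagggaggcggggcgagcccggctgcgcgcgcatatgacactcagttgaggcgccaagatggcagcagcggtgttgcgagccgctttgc
Mrps26: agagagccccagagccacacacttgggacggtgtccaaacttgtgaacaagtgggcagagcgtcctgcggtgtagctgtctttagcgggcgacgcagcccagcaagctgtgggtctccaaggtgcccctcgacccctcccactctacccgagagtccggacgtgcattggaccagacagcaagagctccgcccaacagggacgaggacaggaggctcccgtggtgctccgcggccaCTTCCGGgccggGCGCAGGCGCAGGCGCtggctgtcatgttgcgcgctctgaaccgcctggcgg
Mrpl14: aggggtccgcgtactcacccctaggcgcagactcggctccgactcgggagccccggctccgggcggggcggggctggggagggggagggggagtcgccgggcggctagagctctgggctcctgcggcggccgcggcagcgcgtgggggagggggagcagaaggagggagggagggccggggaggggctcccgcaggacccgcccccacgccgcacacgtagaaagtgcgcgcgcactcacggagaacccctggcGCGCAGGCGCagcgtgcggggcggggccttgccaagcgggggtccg
Mrps9: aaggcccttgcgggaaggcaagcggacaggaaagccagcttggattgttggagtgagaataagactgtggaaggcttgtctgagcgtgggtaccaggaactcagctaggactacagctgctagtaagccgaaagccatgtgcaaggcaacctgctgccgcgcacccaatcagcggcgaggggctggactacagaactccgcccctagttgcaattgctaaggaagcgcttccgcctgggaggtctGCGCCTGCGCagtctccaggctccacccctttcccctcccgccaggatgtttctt
Mrpl46: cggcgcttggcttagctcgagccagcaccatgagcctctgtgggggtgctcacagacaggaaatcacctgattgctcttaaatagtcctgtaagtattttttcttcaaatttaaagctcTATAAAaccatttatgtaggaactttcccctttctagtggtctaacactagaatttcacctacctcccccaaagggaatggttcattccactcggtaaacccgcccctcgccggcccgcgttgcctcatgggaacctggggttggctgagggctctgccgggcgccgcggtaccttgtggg
Mrps11: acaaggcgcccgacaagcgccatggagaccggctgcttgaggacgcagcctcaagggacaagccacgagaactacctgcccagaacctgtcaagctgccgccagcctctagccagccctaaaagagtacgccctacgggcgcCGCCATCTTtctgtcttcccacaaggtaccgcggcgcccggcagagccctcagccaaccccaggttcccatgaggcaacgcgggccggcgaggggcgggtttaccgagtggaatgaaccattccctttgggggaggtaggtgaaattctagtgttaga

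The window of Mrpl49 held none of the motifs. That of Mrps26 held an ETS match followed by a pair of overlapping NRF1 matches. Mrpl14 and Mrps9, which fell, each held 1 NRF1 match. Mrpl46 held a TATAAA match and Mrps11 a YY1 match, and the windows of these divergent genes share 141 bases. RefSeq windows were found for 69 of the 78 members, 75 windows in all. The ETS motif was in 26 of them (34.7%), against 16.9% of the 13305 windows found for 10401 of the tested genes. The NRF1 motif was in 13 (17.3%, against 9.56%) and the YY1 motif in 8 (10.7%, against 2.84%). E-boxes (9.33% against 9.64%), TATAAA (6.67% against 7.28%) and the ZBTB33 motif (1.33% against 0.947%) were near the share over tested genes. Of the windows of members that rose, 7 of 33 held the NRF1 motif, 12 the ETS motif and 5 the YY1 motif. Of the 18 windows of 15 members that fell, the numbers were 5, 4 and 0, and of the 23 windows of members not called 1, 9 and 3. Among windows of the other tested genes, the ETS motif was in 21.7% where the gene rose and 12.1% where it fell. The shares were 11.6% and 7.48% for NRF1, and 3.69% and 1.97% for YY1. Genes with several starts have several windows, no test was made of these shares, and a match is only a match of letters.

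Of the 78 members, 77 passed the filter on low counts. The exception was Mrpl53, a large subunit protein, which had 0 counts in every library, a count that allows up to 0.0134 CPM over all of them. In the gene models of GENCODE M21, whose symbols equal those of the table, 88.0% of its exon bases are shared with other genes. The limit holds for counted reads only, and whether reads over shared bases were counted was not tested. Relative to control, 33 of the tested members were higher in the knockout-labelled libraries (42.9%, where 32.7% of the 15199 tested genes were higher). Another 20 were lower (26.0%, where 38.8% of tested genes were lower), and 24 did not pass the test, edgeR's quasi-likelihood test at an adjusted p of 0.05 over all genes tested. Called members made up 68.8%, close to the 71.5% of all tested genes. Among the 7729 tested genes within the members' range of average expression, 39.3% were higher, 40.6% lower and 79.9% called. In 58 members (75.3%) the 3 libraries of one group all lay above those of the other, as in 76.1% of tested genes.

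The members moved in both directions and by little. Their median log2 fold change was 0.12, with quartiles at -0.28 and 0.49, and the extremes were -0.93 for Mrps9 and 1.18 for Mrpl49. Over all tested genes the median was -0.04 and the quartiles were -0.78 and 0.55. Among members 3 (3.90%), Mrpl49, Mrps26 and Mrpl18, were called with a change of at least 1 on the log2 scale, where 30.5% of tested genes were. The SD of the log2 fold changes was 0.49 over the members and 1.38 over the 7729 tested genes within the members' range of average expression, of which 79.9% were called. Against a minimum change of 1.5-fold (edgeR's glmTreat), 11 members were higher and 3 lower. In bulk RNA, more cells with a transcript and more transcript per cell cannot be told apart.

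**Figure D1:**
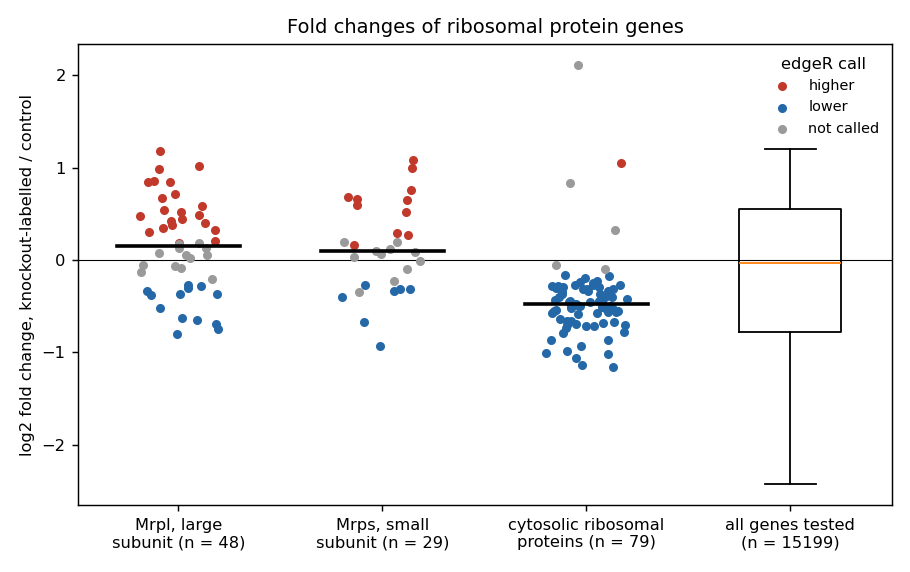
Log2 fold change (knockout-labelled over control, vertical axis) of each tested gene of the large mitochondrial subunit, the small mitochondrial subunit and the cytosolic ribosome, coloured by the edgeR call, with the median as a black bar, beside a box of all 15199 tested genes (median and quartiles, whiskers at the 10th and 90th percentiles). Both mitochondrial subunits spread to either side of 0, while 73 of 79 cytosolic genes were lower, where 38.8% of all tested genes were.

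The large subunit had 22 members higher, 13 lower and 13 not called of 48 tested, with a median log2 fold change of 0.15. The small subunit had 11 higher, 7 lower and 11 not called of 29, with a median of 0.10. Its count of falls was the least stable and came to 4 without control replicate 2 and to 4 without knockout replicate 2. Summed over the large subunit, the level was 2168, 2150 and 2243 CPM in control libraries and 2435, 2409 and 2339 CPM in knockout-labelled libraries, 9.47% higher on average. The small subunit summed to 1177, 1150 and 1187 CPM against 1329, 1285 and 1273 CPM, 10.6% higher. In each subunit every knockout-labelled library was above every control library. The large to small ratio of these sums was 1.84, 1.87 and 1.89 in control and 1.83, 1.87 and 1.84 in knockout-labelled libraries (1.87 ± 0.02 against 1.85 ± 0.02), and the groups overlapped. The subunits thus shifted by like amounts in summed RNA, while members within each went opposite ways: the 33 members called higher rose together from 1295 to 1930 CPM, and the 20 called lower fell from 1189 to 860 CPM. Those last sums restate the calls and are no separate evidence of them.

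Protein origin divided the members less than the spread within each class. Of 48 tested members with a bacterial counterpart, 19 were higher and 14 lower, with a median log2 fold change of 0.08. Of 28 tested members specific to mitochondria, 14 were higher and 6 lower, with a median of 0.17. In the large subunit the medians were 0.07 over 30 genes with a counterpart and 0.19 over 18 without, and in the small subunit 0.09 over 18 and 0.14 over 10. These classes were assigned from general knowledge with the results known and were not compared by a test.

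**Figure D2:**
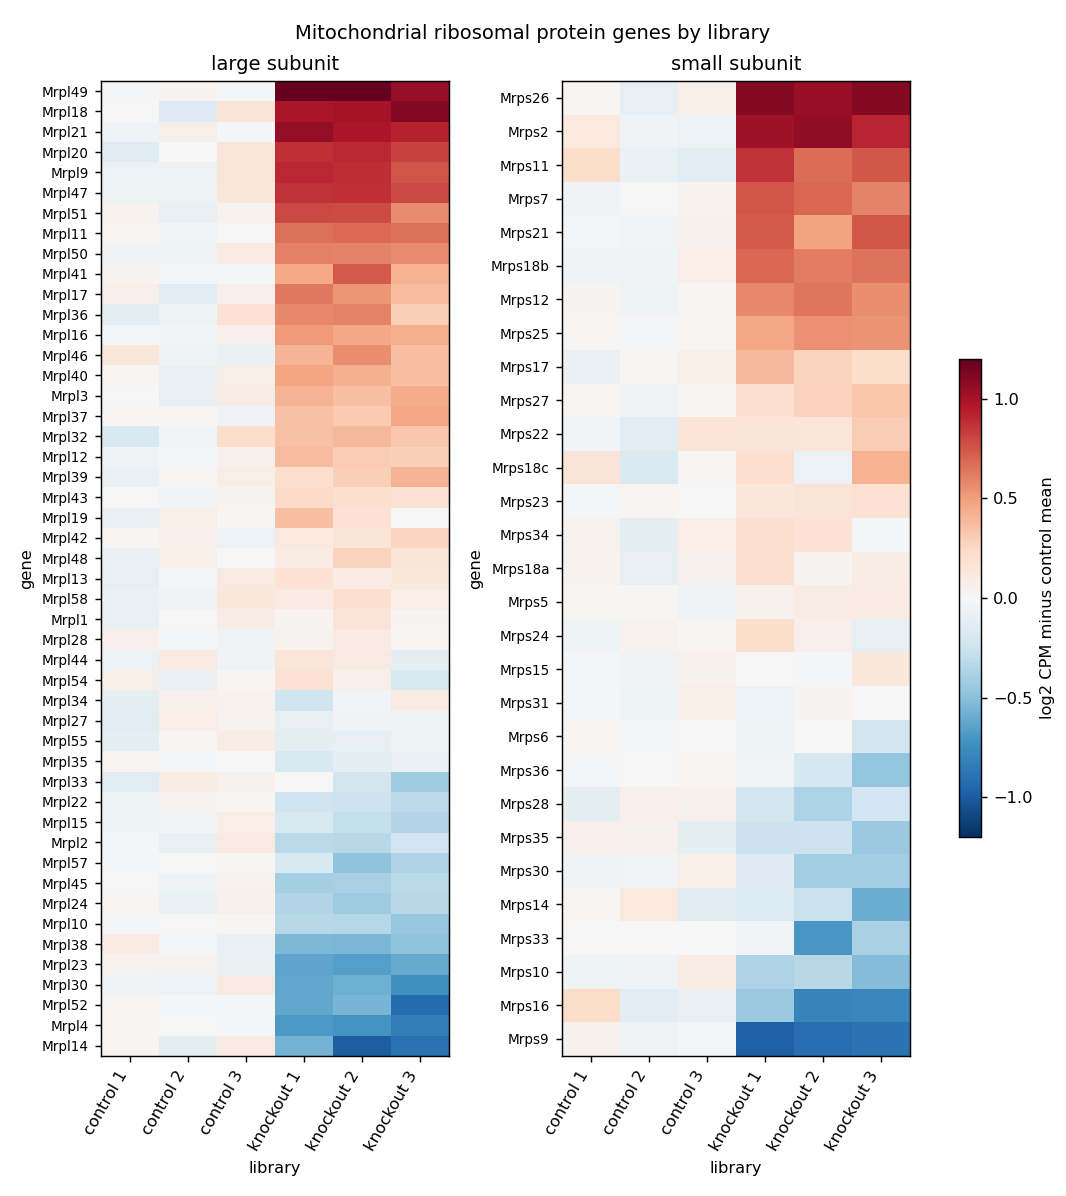
Log2 CPM of each member minus its mean over the control libraries (colour scale) in each library (columns), for the large subunit at left and the small subunit at right, with genes ordered by fold change. Red genes at the top and blue genes at the bottom changed in all 3 knockout-labelled libraries, and in the middle rows the colours of the groups mix.

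Among large subunit members, the largest rise was in Mrpl49, a mitochondria-specific protein. Its level was 40.8, 42.1 and 40.8 CPM in control libraries and 97.3, 96.8 and 85.5 CPM in knockout-labelled libraries (log2 fold change 1.18, SE 0.06, edgeR adjusted p = 2.7e-07). The lowest knockout-labelled library was far above the highest control library. Mrpl18, which binds 5S ribosomal RNA in bacteria and is known to help carry it into mitochondria, had 42.6, 38.0 and 47.3 CPM against 83.8, 84.6 and 91.2 CPM (1.02, SE 0.08, edgeR adjusted p = 3.7e-06). Mrpl21 had 37.2, 40.4 and 38.3 CPM against 80.2, 76.0 and 73.0 CPM (0.98, SE 0.06). For Mrpl20, which in bacteria is needed early in large subunit assembly, the values were 26.3, 29.1 and 32.3 CPM against 53.4, 54.5 and 51.0 CPM (0.86, SE 0.08). Within each of these genes the groups lay far apart, with no library in between. The other large subunit members called higher had log2 fold changes from 0.18 (Mrpl42) to 0.85 (Mrpl9). They included Mrpl47 at 0.84, Mrpl51 at 0.71, Mrpl11 at 0.67 and Mrpl12, the stalk protein, at 0.32.

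The largest fall in the large subunit was in Mrpl14, which lies at the face turned to the small subunit and is the docking site of the assembly factor Malsu1. Its values were 42.4, 38.7 and 44.7 CPM in control and 28.3, 21.1 and 22.5 CPM in knockout-labelled libraries (log2 fold change -0.81, SE 0.11, edgeR adjusted p = 0.00017). Knockout replicate 1 was the highest of its group and still below every control library. Mrpl4, which lines the exit tunnel in bacteria, had 56.3, 55.1 and 54.9 CPM against 34.3, 33.7 and 31.3 CPM (-0.74, SE 0.05, edgeR adjusted p = 2.8e-06). The mitochondria-specific Mrpl52 had 49.4, 47.9 and 48.1 CPM against 31.5, 32.9 and 25.5 CPM (-0.69, SE 0.09). Mrpl30 had 61.6, 60.6 and 68.4 CPM against 41.1, 42.3 and 38.0 CPM (-0.65, SE 0.07). In all 4 of these genes the groups did not overlap. Mrpl38, a mitochondria-specific protein of the central protuberance, fell from 168, 155 and 150 CPM to 108, 108 and 113 CPM (-0.52, SE 0.05). The other large subunit members called lower ranged from -0.63 (Mrpl23) to -0.27 (Mrpl22), among them Mrpl10, the base of the stalk, at -0.37.

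In the small subunit Mrps26, a mitochondria-specific protein, rose most. It had 40.6, 37.3 and 41.8 CPM in control libraries and 85.3, 82.3 and 85.4 CPM in knockout-labelled libraries (log2 fold change 1.08, SE 0.05, edgeR adjusted p = 2.6e-07). Mrps2 had 37.6, 33.6 and 33.1 CPM against 70.3, 72.4 and 65.2 CPM (1.00, SE 0.07, edgeR adjusted p = 1.6e-06). In both genes the knockout-labelled libraries lay close together and well above control. Mrps11, of the platform that holds the messenger RNA, had 14.2, 11.5 and 11.2 CPM against 22.3, 19.5 and 20.4 CPM (0.76, SE 0.11). Mrps7, which in bacteria starts the assembly of the small subunit head, had 55.0, 57.0 and 58.5 CPM against 95.7, 91.5 and 86.0 CPM (0.68, SE 0.05). All 4 were higher in each knockout-labelled library than in any control library.

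Mrps9, whose bacterial counterpart reaches the transfer RNA in the decoding centre, had the largest fall of any member. It had 83.5, 78.1 and 79.5 CPM in control and 40.6, 42.6 and 43.4 CPM in knockout-labelled libraries (log2 fold change -0.93, SE 0.05, edgeR adjusted p = 3.6e-07). Mrps16, mutated in an inherited disease of mitochondrial translation, had 23.9, 18.7 and 19.1 CPM against 15.0, 11.7 and 11.9 CPM (-0.68, SE 0.14, edgeR adjusted p = 0.0017). Control replicate 1 was the highest and knockout replicate 1 the highest of its group, with a gap left between the groups. Mrps10 had 69.6, 69.7 and 76.6 CPM against 55.7, 57.2 and 50.2 CPM (-0.40, SE 0.06). Mrps14 was next, at 27.1, 28.9 and 24.1 CPM against 23.7, 22.0 and 17.6 CPM (-0.34, SE 0.12, edgeR adjusted p = 0.030). Its groups nearly touched, and its call was lost under relative log expression factors, without the 20 highest genes, and when any single library other than knockout replicate 1 was left out. Without knockout replicate 3 its log2 fold change was -0.16 (edgeR adjusted p = 0.11), and over the libraries left out in turn the highest adjusted p was 0.20, without control replicate 2.

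**Figure D3:**
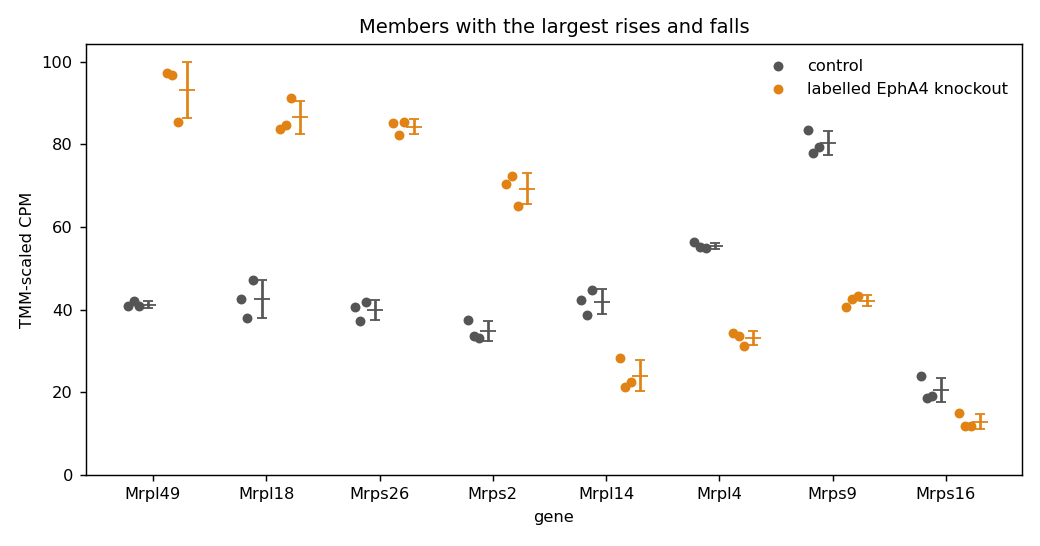
CPM (vertical axis, scaled by TMM factors) of the largest 2 rises and 2 falls of each subunit, with a point for each library and the mean ± SD beside it, control in grey and knockout-labelled in orange. In none of the 8 genes did the groups overlap.

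The 3 Mrps18 genes, paralogs of a single bacterial protein that take different places in the ribosome, did not move together. Mrps18b had 38.2, 38.3 and 41.6 CPM in control and 63.5, 60.1 and 61.9 CPM in knockout-labelled libraries (log2 fold change 0.65, SE 0.05, edgeR adjusted p = 6.3e-06). Mrps18a, found in the large subunit despite its name, had 56.0, 50.9 and 56.4 CPM against 61.9, 55.6 and 57.8 CPM (0.10, SE 0.06, edgeR adjusted p = 0.16), and its groups overlapped. Mrps18c had 9.36, 7.48 and 8.52 CPM against 9.68, 8.02 and 11.2 CPM (0.19, SE 0.16, edgeR adjusted p = 0.32). Mrps18a was called higher without knockout replicate 3 (0.17, edgeR adjusted p = 0.038). Differences between the paralogs' changes were not tested.

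Other members also sit elsewhere than their symbols say. Mrps30, likewise a large subunit protein, had 64.8, 65.3 and 69.8 CPM in control and 59.9, 50.1 and 50.4 CPM in knockout-labelled libraries (log2 fold change -0.32, SE 0.07, edgeR adjusted p = 0.0043). The call was lost without knockout replicate 2 (edgeR adjusted p = 0.055). Mrps36, now known as a part of the oxoglutarate dehydrogenase complex, had 20.3, 20.7 and 20.9 CPM against 20.2, 17.8 and 14.9 CPM (-0.23, SE 0.11, edgeR adjusted p = 0.098), and passed without knockout replicate 1. Counted by place in the ribosome, the large subunit had 22 members higher and 14 lower, and the small subunit 11 and 6.

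For 24 members the change did not pass the test. Their log2 fold changes ran from -0.35 (Mrps33) to 0.20 (Mrps22), and in 5 of them (Mrps33, Mrps36, Mrpl35, Mrps5 and Mrpl48) the groups did not overlap. Negative values were found in Mrpl33 (-0.21), Mrpl35 (-0.13), Mrps6 (-0.09), Mrpl55 (-0.09), Mrpl27 (-0.07), Mrpl34 (-0.05) and Mrps31 (-0.01). Positive values were found in Mrpl54 (0.02), Mrps15 (0.04), Mrpl44 (0.05), Mrpl28 (0.05), Mrps24 (0.06), Mrpl1 (0.08), Mrps5 (0.08), Mrps34 (0.12), Mrpl13 (0.13), Mrpl48 (0.17) and Mrpl19 (0.18). Mrpl58, a peptidyl-tRNA hydrolase that frees stalled ribosomes and is itself part of the large subunit, was at 0.12. A missed threshold does not show that these genes were equal between the groups. Without knockout replicate 3, 10 of them passed as higher, Mrps22, Mrps5, Mrps24, Mrps34, Mrps18a, Mrpl13, Mrpl19, Mrpl48, Mrpl54 and Mrpl58, and the members higher came to 43.

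Levels between members were compared only per length, as CPM per kilobase of the principal GENCODE M21 transcript. In the control libraries Mrpl52 (116 ± 1.90), Mrpl38 (112 ± 6.86), Mrpl42 (103 ± 4.62) and Mrpl12 (90.0 ± 2.86) were the highest. The first 2 of these do not differ beyond their SDs. The highest small subunit members by symbol were Mrps10 (70.7 ± 3.94) and Mrps18a (61.6 ± 3.50). The lowest were Mrpl48 (4.47 ± 0.23), Mrpl17 (4.62 ± 0.34) and Mrpl47 (4.77 ± 0.37), which lie within each other's spread. Their annotated transcripts are long, at 4285, 7300 and 3364 bases, against 418 bases for Mrpl52. Whether these are the forms expressed here was not tested, and the order depends on it. In the knockout-labelled libraries the order at the top changed, with Mrpl42 at 116 ± 6.09 and Mrpl12 at 112 ± 3.88, above Mrpl38 at 77.8 ± 1.94 and Mrpl52 at 71.7 ± 9.46. Across the 77 genes the log2 fold change ran weakly against the control level per length (Pearson's r = -0.33, Spearman's rho = -0.36), a description over genes that share libraries and whose fold change contains the control level.

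On some chromosomes the members leaned the same way as the other genes there. All 5 members on chromosome 19 (Mrpl11, Mrpl16, Mrpl21, Mrpl43 and Mrpl49) were higher, with a median log2 fold change of 0.67, and the 541 other tested genes there had a median of 0.28, with 45.7% higher and 29.4% lower. All 3 on chromosome 14 (Mrpl52, Mrpl57 and Mrps16) were lower, with a median of -0.68, and the 484 other genes had a median of -0.40, with 14.9% higher and 54.8% lower. On chromosome 1 none was higher and 4 of 5 (Mrpl15, Mrpl30, Mrps9 and Mrps14) were lower, with a median of -0.34 against -0.25 over 906 other genes. On chromosome 2, by contrast, 3 of 4 members were higher (Mrps26, Mrps2 and Mrpl41), while the other genes had a median of -0.03. Chromosome 11, with 11 members, had 3 higher and 4 lower. Over the 77 members, the log2 fold change and the median of the other genes of the chromosome had r = 0.46 and rho = 0.49. Over the 14 chromosomes with at least 3 members, the medians had r = 0.76 and rho = 0.77. The points share the same 6 libraries, so these are descriptions with no test.

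**Figure D4:**
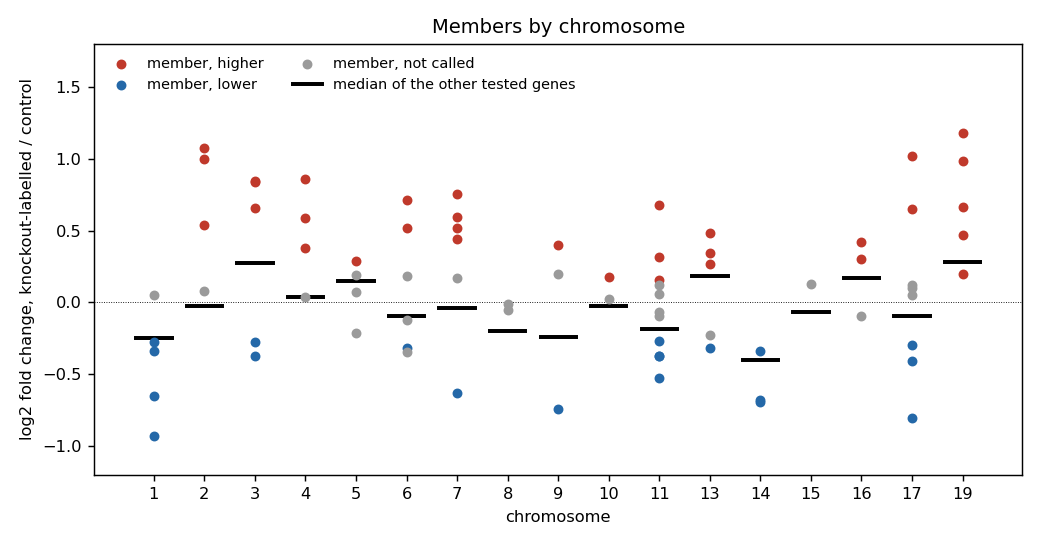
Log2 fold change of each tested member (points, coloured by call) by chromosome, with the median of all other tested genes of that chromosome as a black bar. Members of chromosome 19 lie above 0 and those of chromosome 14 below 0, as do the medians of the other genes there, while chromosomes 11 and 17 hold members of both directions.

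Neighbours across a shared promoter gave a second local comparison. By principal transcripts, 26 members formed 25 head-to-head pairs with starts at most 1000 bases apart. In 10 pairs both genes were higher, in 1 both were lower, in 3 they went opposite ways, and in 11 at least 1 was not called. Among members 42.9% were higher, and among all tested genes 32.7% were higher and 71.5% called. How often unrelated genes would both be higher was not computed, so these counts show no link between neighbours. Mrpl46 and Mrps11, whose starts are 30 bases apart and whose promoters are printed above, both rose (log2 fold changes 0.44 and 0.76). Mrps18b rose with Ppp1r10, a regulatory subunit of protein phosphatase, which went from 29.8 ± 1.01 to 141 ± 2.31 CPM (2.24). Mrpl30 was the pair that fell together, with Mitd1, a protein of cell abscission, at -1.91. Mrpl49 instead rose against Fau, a ubiquitin-like protein fused to a cytosolic ribosomal protein (-0.15), Mrpl47 against Ndufb5, a complex I subunit (-0.25), and Mrpl41 against Pnpla7, a lysophospholipase (-0.97). Over the 25 pairs the changes had r = 0.19 and rho = 0.14. Where the paired genes overlap, as for Mrpl47 with Ndufb5, their reads cannot be told apart without a known strand setting.

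Some members share exon bases with other genes. Over all tested genes, 32.7% were higher and 38.8% lower. The 45 members with no exon base shared with another gene had 16 higher and 16 lower (35.6% each), with a median log2 fold change of 0.02. The 32 tested members that share exon bases had 17 higher (53.1%) and 4 lower (12.5%), with a median of 0.23. Mrpl49, Mrps26 and Mrpl18, the 3 members with the largest rises, are among those that overlap, with 4.85%, 0.18% and 10.1% of their exon bases shared. The part of the neighbours' reads in these counts was not tested.

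Cytosolic ribosomal proteins, which make up the ribosome outside mitochondria, were mostly lower. Of 79 tested, 73 were lower (92.4%, where 38.8% of all tested genes were), 1 was higher and 5 were not called. The cytosolic genes had a median log2 fold change of -0.48. Together they fell from 76519 ± 3038 to 52680 ± 2470 CPM, while the tested mitochondrial members went from 3358 ± 66.0 to 3690 ± 76.2 CPM. In each library the mitochondrial members were a small share of all counts, 0.332% to 0.342% in control and 0.357% to 0.376% in knockout-labelled libraries. The difference between the ribosomes was not tested, since genes of a list are not replicates.

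The ribosome's remaining parts moved mostly downward. Of 5 mitoribosomal proteins with other symbols, 4 were lower (80.0%) and 1 higher (20.0%), where 38.8% and 32.7% of all tested genes were. Chchd1 fell from 81.2 ± 4.75 to 41.5 ± 2.58 CPM (log2 fold change -0.97), Gadd45gip1 was at -0.45, and Dap3, the GTP-binding protein of the small subunit, at -0.36. Aurkaip1, at -0.23, lost its call without knockout replicate 3. Ptcd3, a pentatricopeptide protein of the small subunit, rose from 45.3 ± 4.46 to 92.5 ± 7.48 CPM (1.03). The 2 ribosomal RNAs also fell: mt-Rnr1 had 26820, 20919 and 26134 counts in control and 13360, 13810 and 13205 in knockout-labelled libraries (-0.81, SE 0.07), and mt-Rnr2 had 17752, 14803 and 20649 against 10720, 11429 and 12276 (-0.56, SE 0.07). Both were measured here after polyA selection. Over all 15 mitochondrially encoded genes of the list, 9 were higher and 3 lower, and without knockout replicate 3 these were 6 and 5. Processed pseudogenes took 1.49% of the counts of that library and 0.285% to 0.345% in the other 5.

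Genes that build and serve the ribosome also split, as did all tested genes, of which 32.7% were higher and 38.8% lower. Of 30 assembly factors 12 were higher and 12 lower (40.0% each), with a median log2 fold change of -0.08. The largest changes were rises, in Ybey, an endonuclease of ribosomal RNA (1.49), Trub2, a pseudouridine synthase (1.26), and Fastkd2, an RNA-binding protein of large subunit assembly (1.22). Of 16 translation factors 6 were higher (37.5%) and 7 lower (43.8%), with a median of -0.14. Lrpprc, which stabilises mitochondrial messenger RNAs, rose from 64.1 ± 2.67 to 164 ± 9.56 CPM (1.36), and Gfm1, an elongation factor, from 67.1 ± 3.41 to 149 ± 7.94 CPM (1.15). Oxa1l, which inserts new proteins into the inner membrane at the ribosome, fell from 60.7 ± 3.94 to 28.4 ± 1.63 CPM (-1.09). Of 20 aminoacyl-tRNA synthetases of mitochondria 10 were higher and 5 lower (median 0.31), with Mars2 at 1.06, Wars2 at 0.98 and Fars2 at -1.04. Of 18 genes of mitochondrial transcription and RNA processing 7 were higher (38.9%) and 3 lower (16.7%), with a median of 0.15. Elac2, which trims transfer RNA ends, was at 1.29, the helicase Twnk at 1.25 and Hsd17b10, a subunit of mitochondrial RNase P, at -1.26.

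**Figure D5:**
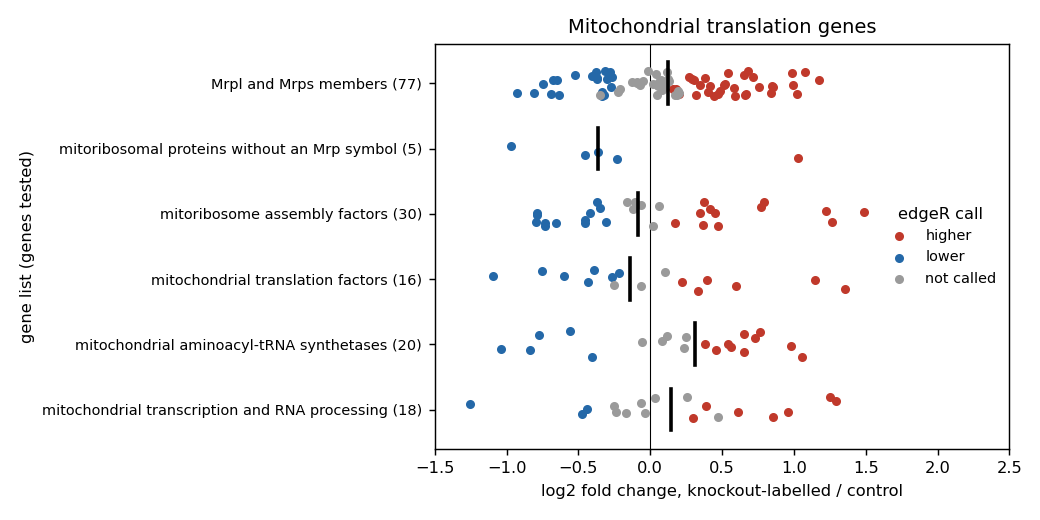
Log2 fold change (horizontal axis) of each tested gene of the members and of 5 lists of mitochondrial translation genes, coloured by call, with the list's median as a black bar. Each list holds genes on both sides of 0, and the medians lie between -0.36 and 0.31.

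Among regulators of mitochondrial biogenesis, 4 of 10 tested genes were higher and 5 lower, and 5 and 3 without knockout replicate 3. Ppargc1a, the coactivator PGC-1alpha, had 322, 299 and 362 counts in control libraries and 0, 0 and 7 in knockout-labelled libraries, and Ppargc1b fell from 4.56 ± 0.86 to 0.37 ± 0.34 CPM. Esrra, a nuclear receptor that works with them, fell from 70.5 ± 6.32 to 30.4 ± 2.36 CPM (log2 fold change -1.21). The third coactivator of the family, Pprc1, rose from 138 ± 7.20 to 349 ± 10.3 CPM (1.34). Of the factors whose motifs were sought above, Nrf1 rose by 0.44 on the log2 scale, Gabpa, the DNA-binding subunit of GABP, by 0.59, and its partner Gabpb2 by 1.40. The other GABP partner, Gabpb1, fell from 52.8 ± 0.61 to 46.2 ± 0.34 CPM (-0.19), and Yy1 fell by 0.10 on the log2 scale. Both lost their call without knockout replicate 3, Gabpb1 at -0.14 (edgeR adjusted p = 0.061) and Yy1 at -0.04 (edgeR adjusted p = 0.48). Myc, which activates ribosomal genes widely, was at 0.04 and not called, but without knockout replicate 3 it was called higher (0.13, edgeR adjusted p = 0.021). Whether any of these bears on the members was not tested.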

How the data were processed

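RNA of 6 MOC2 samples was measured by polyA-selected RNA-seq. Raw counts by gene symbol, not normalized, came in 1 table from the authors and were used as deposited. Alignment with STAR and the build GRCm39 are named per the submitters' processing notes, while for the counting tool, its annotation and its strand setting the answer is not given in the sources used here. Since GENCODE M21, on an earlier build, has exactly the table's symbols, chromosomes, exon overlap, starts and lengths come from it and no gene coordinates are printed.

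In edgeR 4.0.16 (R 4.3.3), filterByExpr kept 15199 of 28042 genes with any count, and TMM scaling was followed by glmQLFit and glmQLFTest, two-sided and with the group alone in the model, with Benjamini-Hochberg adjustment over all tested genes. Standard errors (SE) were derived from F, as the size of the log2 fold change over the root of F. CPM values are TMM-scaled, except the sums over cell type markers and the limit for Mrpl53, which use library totals alone. Before scaling, 1 count is worth 0.0239 to 0.0285 CPM. The procedure was tried on simulated counts in which 200 genes were changed, far fewer than were called here. It recovered 32 of 50 genes at 1.5-fold, 28 of 50 at 2-fold, 42 of 50 at 4-fold and 50 of 50 at 32-fold. Of its 163 calls 11 were false. Alternatives used limma 3.58.1, DESeq2 1.42.0 and the settings named in the closing section. Promoter windows are RefSeq's on GRCm38.p6.

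The members and lists were chosen with earlier results of these data known. Values per library are given for the 4 largest rises and falls per subunit (called, average log2 CPM of at least 3, groups not overlapping), the highest 2 per length of each subunit, the Mrps18 paralogs, Mrps30 and Mrps36, and up to 3 called genes per list.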

Additional observations from a re-analysis of the deposited data

Results flagged for a closer look

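Pseudogene symbols of the family were outside the rule and the comparisons. Mrpl48-ps had 24 counts in knockout replicate 3, and 4, 1 and 5 in the control and 6 and 2 in the other knockout-labelled libraries. Mrps36-ps2 had 8 counts in knockout replicate 3, 1 in each control library and 0 in the others. Both exceeded the upper 95% Poisson limit of the highest control library, which covers counting error only. The same library had the highest share of its counts in processed pseudogenes.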

How the results depend on the processing

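Of the 53 called members, 47 kept their call in each of 16 alternatives that kept the threshold, and none of the 53 reversed. The exceptions were Mrps14, Mrps23, Mrps28, Mrps30, Mrps35 and Mrpl42. Members higher and lower numbered 33 and 20 as reported, 33 and 19 with DESeq2, 33 and 21 with limma-voom and with upper-quartile factors, 35 and 19 with relative log expression factors and without the 20 highest genes, 33 and 20 by library size, 31 and 22 without the filter, 36 and 21 with at least 5 CPM in 3 libraries, and 32 and 18 at an adjusted p of 0.01. Against a change of 1.5-fold they were 11 and 3 (large subunit 8 and 2, small subunit 3 and 1). Leaving out each library in turn gave 34 to 43 higher and 17 to 22 lower (large subunit 22 to 27 and 13, small subunit 12 to 16 and 4 to 9). Without processed pseudogenes, an alternative chosen after seeing the data, they were 41 and 21. With the replicate number as a block they were 34 and 20. Deviations of same-numbered samples had correlations of 0.03, 0.14 and -0.08, so that the numbers do not pair the samples. Mrps18c had the fewest counts of the tested members, 264 to 413 per library, and the part of depth in its spread was not tested. Whether depth or shared exons left Mrpl53 at 0 counts was not tested either.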
